A study of Mus musculus with 8 samples.

Results

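NRF2, encoded by Nfe2l2, is the transcription factor that turns on antioxidant and detoxification genes. The 10 genes described here are Nfe2l2, its inhibitor Keap1 and 8 well-known targets, Nqo1, Hmox1, Gclc, Gclm, Srxn1, Slc7a11, Gsr and Txn1. They were chosen by symbol as the core of the NRF2 antioxidant response and make up 10 of the 32726 gene identifiers counted in cultured mouse neurons of 2 genotypes. The question was whether they differ between neurons without NUAK1 and wild type neurons, since Txnrd1, another NRF2 target, was already known from these libraries to be more abundant in the knockout.

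RNA of 4 Nuak1 knockout (KO) and 4 wild type (WT) cultures was sequenced after 5 days in vitro with no other treatment. NUAK1 is a kinase related to AMPK. The labels give the genotype as KO without naming the allele, and the study describes the Nuak1 KO mice it used for sequencing of cortex as constitutive. The cultures were prepared from embryos and grown without serum, which limits astrocytes. The study describes 4 animals per genotype on a C57Bl/6JRj background and cortical neurons, whereas the tissue label names cortex or hippocampus for every library. A strain label, not explained further, was BJ in KO1, KO2 and KO3, BK in KO4, WT2 and WT4, BO in WT1 and BQ in WT3. Each of the 2 sequencing lanes held 2 libraries of each genotype, lane A those of KO1, WT1, KO4 and WT3.

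Under resting conditions KEAP1 holds NRF2 in the cytoplasm and presents it to a CUL3 ubiquitin ligase for degradation. Oxidants and electrophiles modify cysteines of KEAP1, newly made NRF2 then escapes, enters the nucleus, pairs with small MAF proteins and binds antioxidant response elements in its target genes. Because much of this control acts on the protein, the abundance of Nfe2l2 mRNA is not a measure of NRF2 activity, and the targets are read for that purpose. In brain the pathway is known to be far more active in astrocytes than in neurons.

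The core of an antioxidant response element can be written TGACNNNGC, in which N is any base. It was looked for on both strands in promoter windows of 300 bases, from 250 bases before to 50 bases after a gene's start, taken from RefSeq (GRCm38.p6). A window was found for 7 of the 10 genes and held these letters in 3 of them, Nfe2l2, Gclm and Srxn1. Of all 32851 windows 12.4% held them, and of the 27025 genes with a window 14.0% had a match in any window. Among 35 further NRF2 targets with a window, from the list described below, 13 had a match. The matches of Nfe2l2, Gclm and Txnrd1 are shown because these genes stand for the factor, a target with close values in both genotypes and the target that raised the question, and capitals mark the 9 matching bases.
Nfe2l2, chr2:75704885-75704913, minus strand: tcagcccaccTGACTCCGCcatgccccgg
Gclm, chr3:122245413-122245441, plus strand: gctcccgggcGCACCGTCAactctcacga
Txnrd1, chr10:82859104-82859132, plus strand: ctggatttttGCTTTGTCAttctgacacg
The match of Nfe2l2 began 240 bases before its start, and that of Txnrd1 92 bases before 1 of its 3 annotated starts, which lies 25255 bases inside the gene. The window at the outermost start of Txnrd1 held no match. That of Gclm began 134 bases before the start used for its window, which lies 70 bases inside the gene, and thus 64 bases before the gene's outermost start. In Gclm and Txnrd1 the element reads on the strand opposite to the gene. The match of Srxn1, GCTAGGTCA, lay 28 bases after its start. No such letters were in the windows of Keap1, Txn1 and Nqo1. None were in the window of Slc7a11 either, but its start lies 55474 bases inside the gene as annotated, so the outermost start of Slc7a11 was not searched. Enhancers outside the windows were not searched.

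Total counts ran from 31247078 to 67155004 per library, and values below are CPM, counts scaled by the library total, which still depend on transcript length. Nuak1 itself, the label check, was at 1.96 to 2.72 CPM in the KO libraries and 51.6 to 82.6 CPM in the WT libraries and fell by 4.9 on the log2 scale (SE 0.13, edgeR adjusted p = 1.38e-07). KO1 and WT1 stood apart from the other 6 libraries, at -28.2 and -29.5 on the first principal component against 0.4 to 23.6. The fit carried 1 surrogate variable, an estimated covariate for variation other than genotype, at -0.565 in KO1 and -0.617 in WT1 and 0.045 to 0.377 elsewhere. The sum of 13 neuron markers was 6834 to 7806 CPM, of which Map2 gave 2827 to 3877 CPM. Single markers varied more, from 1.28-fold over the libraries for Snap25 to 5.31-fold for Tubb3. Tubb3 was at 299 CPM in KO1, 252 CPM in WT1 and 725 to 1342 CPM elsewhere. In bulk RNA, fewer cells of a type and less RNA per cell cannot be told apart.

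None of the 10 genes passed the adjusted threshold of 0.05 in either direction. Over all 16272 genes tested, 0.0123% passed it as higher in KO and 0.0369% as lower, so a count of 0 among 10 genes is close to that background. At an unadjusted p under 0.05, 0 of the 10 were higher and 1 was lower, Slc7a11, beside 4.71% and 5.78% of all genes. Log2 fold changes, KO minus WT, were positive for 5 genes and negative for 5, with a median of 0.0039 against 0.014 over all tested genes. DESeq2 and limma-voom also passed 0 of the 10, beside 1.01% and 0.0492% of all genes in either direction. DESeq2 gave Nqo1 no adjusted p, and genes without one count as not passing in its share. In none of the 10 did the 4 KO values lie wholly above or below the 4 WT values, which happened for 1.54% of all genes as higher and 0.86% as lower.

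**Figure D1:**
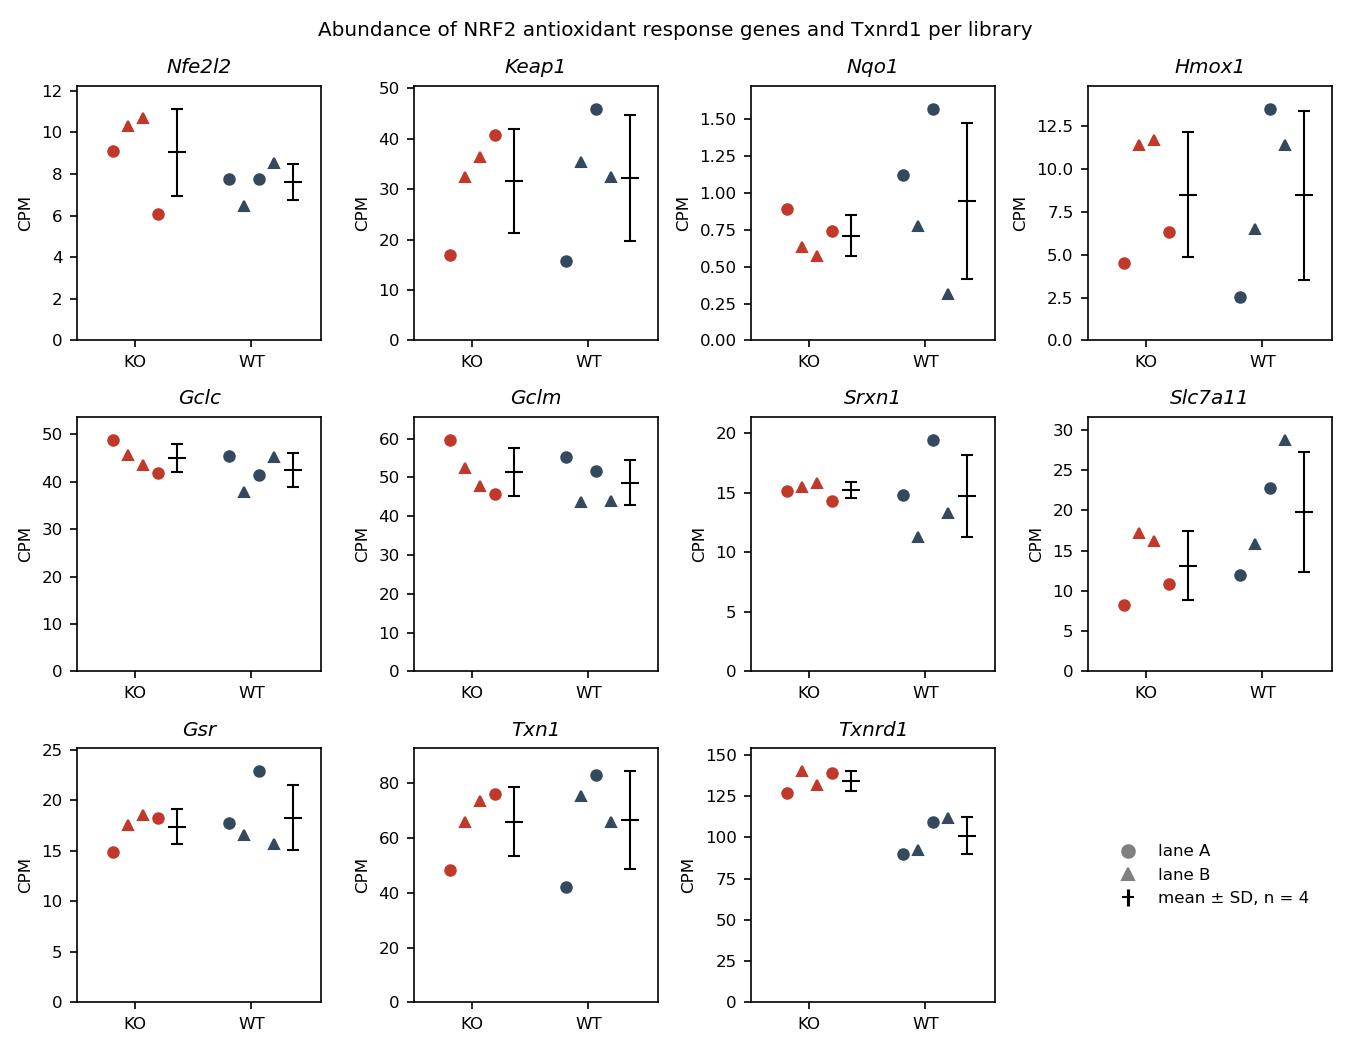
Abundance in CPM (vertical axes, from 0) of the 10 NRF2 antioxidant response genes and Txnrd1 in each library, with circles for lane A, triangles for lane B and a bar for the mean ± SD of 4 libraries. KO and WT points overlap for each of the 10 genes, whereas for Txnrd1 the lowest KO value, 127 CPM, lies above the highest WT value, 112 CPM.

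The factor and its inhibitor were both expressed in all 8 libraries. Nfe2l2 (ENSMUSG00000015839, chr2:75675513-75704663, GRCm38) was at 9.11, 10.3, 10.7 and 6.08 CPM in KO1 to KO4 and at 7.74, 6.46, 7.76 and 8.53 CPM in WT1 to WT4. The 3 KO libraries with the label BJ were above every WT library and KO4 was below them all. The log2 fold change was 0.21 (SE 0.16, 95% interval -0.16 to 0.57, adjusted p = 0.677). Lane A alone gave -0.052 and lane B alone 0.43 (unadjusted p = 0.0112, adjusted p = 0.244), and leaving out KO4 gave 0.36. Leaving out KO3 gave 0.097. With the strain label as a term in place of the surrogate variable it was -0.31. Only the label BK holds both genotypes, so that value rests on KO4 against WT2 and WT4. The other strain labels are joined with genotype in these libraries.

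Keap1 (ENSMUSG00000003308, chr9:21229730-21239332) was at 17.0, 32.4, 36.4 and 40.7 CPM in KO and 15.7, 35.4, 45.9 and 32.4 CPM in WT. Its low values were those of KO1 and WT1 and the other libraries of both genotypes overlapped. With that shared variation in the fit the log2 fold change was -0.0063 (SE 0.063, 95% interval -0.15 to 0.13, adjusted p = 0.983), although the libraries themselves differed 2.93-fold from lowest to highest.

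Glutathione synthesis starts with glutamate-cysteine ligase, made of the catalytic subunit GCLC and the modifier subunit GCLM. Gclc (ENSMUSG00000032350, chr9:77754535-77794489) was at 48.8, 45.7, 43.5 and 41.9 CPM in KO and 45.5, 37.9, 41.5 and 45.2 CPM in WT. The 8 libraries spanned 1.29-fold, less than for any other of the 10 genes, and the log2 fold change was 0.041 (SE 0.058, 95% interval -0.089 to 0.17, adjusted p = 0.834). Gclm (ENSMUSG00000028124, chr3:122245487-122267215) was at 59.6, 52.3, 47.7 and 45.7 CPM in KO and 55.2, 43.6, 51.6 and 43.9 CPM in WT. Here KO1 and WT1 were the high libraries of their genotypes, opposite to Keap1, and the log2 fold change was 0.03 (SE 0.078, 95% interval -0.14 to 0.21, adjusted p = 0.918). Both subunits of the rate-limiting enzyme were therefore measured with intervals that end well within 0.5 on the log2 scale.

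Slc7a11 (ENSMUSG00000027737, chr3:50364936-50499087) encodes xCT, the subunit of the cystine/glutamate exchanger that brings in cystine for glutathione. It was at 8.25, 17.2, 16.2 and 10.9 CPM in KO and 12, 15.8, 22.8 and 28.7 CPM in WT. WT3 and WT4 were above every KO library, while WT1 and WT2 lay among them. The means were 13.1 ± 4.27 and 19.8 ± 7.43 CPM (SD, n = 4 each), and the log2 fold change was -0.59 (SE 0.22, 95% interval -1.09 to -0.092), the most negative of the 10. The unadjusted p was 0.0255 and the adjusted p = 0.417, so it did not pass. It was lower in KO under all 22 alternative settings, from -1.03 to -0.4, and had an unadjusted p under 0.05 in 11 of them and an adjusted p of 0.109 to 1. Lane A alone gave -0.87 and lane B alone -0.46. Without KO1, KO4, WT1, WT3 or WT4, each left out in turn, the unadjusted p was 0.051 to 0.0597, and without KO3 and WT4 together the difference was -0.52 (unadjusted p = 0.155).

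Gsr (ENSMUSG00000031584, chr8:33653238-33698162), glutathione reductase, regenerates glutathione from its disulfide. It was at 14.9, 17.6, 18.6 and 18.3 CPM in KO and 17.8, 16.6, 22.9 and 15.7 CPM in WT. WT3 was above the other libraries, which all lay between 14.9 and 18.6 CPM. The log2 fold change was -0.11 (SE 0.11, 95% interval -0.36 to 0.15, adjusted p = 0.77).

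The thioredoxin system reduces protein disulfides with thioredoxin (Txn1), which thioredoxin reductase (Txnrd1) recharges from NADPH, and sulfiredoxin (Srxn1) repairs overoxidised peroxiredoxins. Txn1 (ENSMUSG00000028367, chr4:57943373-57956411) was at 48.1, 65.7, 73.4 and 76.1 CPM in KO and 42.0, 75.4, 83.0 and 65.8 CPM in WT. KO1 and WT1 were the low libraries, as for Keap1, and the log2 fold change was -0.012 (SE 0.067, 95% interval -0.16 to 0.14, adjusted p = 0.966). Srxn1 (ENSMUSG00000032802, chr2:152105524-152111376) was at 15.1, 15.5, 15.8 and 14.3 CPM in KO and 14.8, 11.3, 19.4 and 13.3 CPM in WT. The KO libraries were close together inside the wider WT range, with a log2 fold change of 0.014 (SE 0.14, 95% interval -0.3 to 0.33, adjusted p = 0.983). The lanes went opposite ways, with -0.24 for lane A and 0.28 for lane B.

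Txnrd1 (ENSMUSG00000020250, chr10:82833951-82897724) is the gene against which these values are set. It was at 127, 140.1, 132 and 139 CPM in KO and 89.8, 92.1, 109 and 112 CPM in WT, with no overlap. The log2 fold change was 0.39 (SE 0.063, 95% interval 0.25 to 0.53), or 1.31-fold (95% interval 1.19 to 1.44). It was 0.40 in lane A libraries and 0.35 in those of lane B. The adjusted p was 0.111 and thus did not pass, although the gene ranked 16 of 16272 by p. It passed with no filter on low counts (adjusted p = 0.0162), with DESeq2 (0.000233) and without WT3 (0.0345), 3 of 22 alternatives, in which 0.157%, 1.01% and 0.694% of all genes passed against 0.0492% in the fit used here. Since this difference was known when the gene was chosen, it is given as a description. Txnrd1 lies 1.47 Mb from Nuak1 on chromosome 10, and the part of that position in its difference was not tested.

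**Figure D2:**
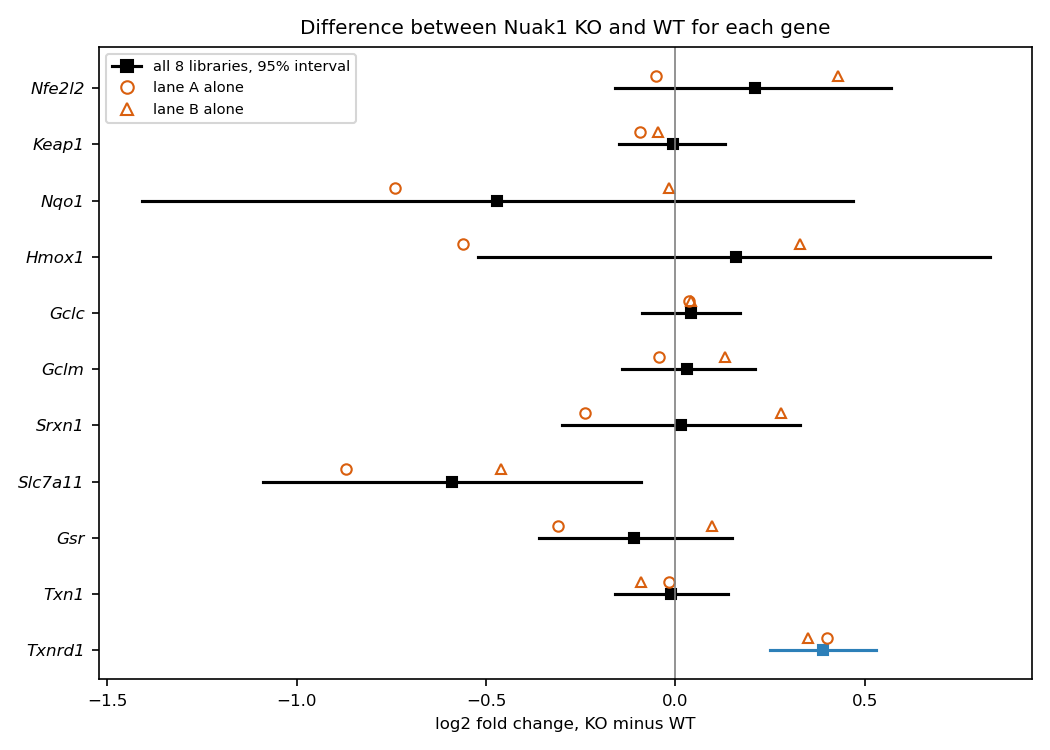
Log2 fold change, KO minus WT, of each gene (squares) with its 95% interval over all 8 libraries, Txnrd1 in blue, and the value on each lane alone (open circles and triangles). The interval includes 0 for 9 of the 10 genes, that of Slc7a11 lies below 0 and that of Txnrd1, 0.25 to 0.53, lies above 0.

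For 6 of the 10 genes, Keap1, Gclc, Gclm, Srxn1, Gsr and Txn1, the whole 95% interval lay within 0.5 either way on the log2 scale. The same held for 10510 of all 16272 tested genes, so 6 of 10 is close to that background. Of the other 4, the interval of Nfe2l2 passed this bound on the higher side only, those of Nqo1 and Slc7a11 on the lower side only and that of Hmox1 on both sides.

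Nqo1 and Hmox1, the targets used most often as markers of NRF2 activity, were also the most variable. Nqo1 (ENSMUSG00000003849, chr8:107388225-107403205) encodes a quinone reductase and was barely expressed, with 31, 22, 30 and 30 counts in KO and 35, 52, 75 and 12 in WT. These are 0.891, 0.636, 0.576 and 0.741 CPM in KO and 1.12, 0.774, 1.57 and 0.316 CPM in WT, so that the WT libraries enclosed the KO libraries on both sides. The log2 fold change was -0.47 (SE 0.42, 95% interval -1.41 to 0.47, adjusted p = 0.719). It was -0.015 without WT3 and -0.74 without WT4 (unadjusted p = 0.0347, adjusted p = 0.345). It was -0.02 when 2 surrogate variables were fitted, so the value depended on single WT libraries and on the fit. With the strain label in their place it was 0.35, which rests on KO4 against WT2 and WT4 alone.

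Hmox1 (ENSMUSG00000005413, chr8:75093618-75100593) encodes heme oxygenase 1, which breaks down heme. It was at 4.51, 11.4, 11.7 and 6.35 CPM in KO and 2.53, 6.48, 13.5 and 11.4 CPM in WT. The libraries differed 5.33-fold, the most of the 10 genes, and KO1 and WT1 were the lowest of their genotypes. The means were 8.51 ± 3.63 and 8.47 ± 4.93 CPM (SD, n = 4 each), and the log2 fold change was 0.16 (SE 0.29, 95% interval -0.52 to 0.83, adjusted p = 0.879). Lane A gave -0.56 and lane B 0.33, and the value was negative under 7 of the 22 alternatives.

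Levels of different genes can be compared only per length, here as CPM per kb of annotated exon. In WT the order was Txn1 at 63.3 ± 17.0, Gclc at 12.4 ± 1.05, Gclm at 9.45 ± 1.12, Keap1 at 7.23 ± 2.8 and Gsr at 6.63 ± 1.16 CPM per kb (SD, n = 4 each). Srxn1 followed at 5.22 ± 1.22, Hmox1 at 3.92 ± 2.28, Nfe2l2 at 2.01 ± 0.226, Slc7a11 at 1.76 ± 0.661 and Nqo1 at 0.609 ± 0.343 CPM per kb (SD, n = 4 each). The KO means gave the same order. Among WT libraries, neighbours in this order overlapped except Txn1 and Gclc, Gclc and Gclm, and Slc7a11 and Nqo1. Thioredoxin and both ligase subunits were thus the abundant transcripts and Nqo1 the scarce one in both genotypes.

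**Figure D3:**
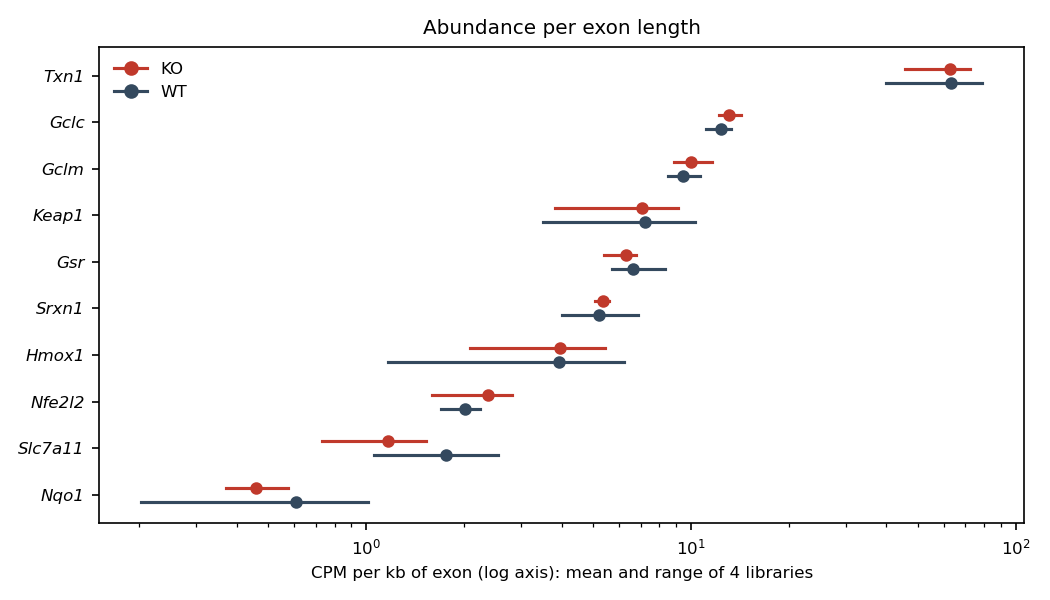
Abundance per exon length of the 10 genes in CPM per kb on a log axis, with the mean (point) and range (line) of 4 libraries for KO (red) and WT (blue). Txn1 is above all others, at 63.3 CPM per kb in WT, Nqo1 is below them at 0.609, and KO and WT lines overlap for each gene.

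Of 42 further NRF2 targets listed, 39 were in the table and 34 were tested, 18 with a positive and 16 with a negative log2 fold change and a median of 0.016. Txnrd1, already known to be higher, is on this list, and without it 17 of 33 were positive and the median was 0.0012. None passed the adjusted threshold with edgeR or limma-voom, and with DESeq2, which passed 165 of all 16272 genes against 8 with edgeR, 1 did, Txnrd1. At an unadjusted p under 0.05 there were 2 higher, Txnrd1 and Gstm5, and 0 lower. Without Txnrd1 this leaves 1 of 33 higher, beside 4.71% of all tested genes. Gstm5, a glutathione S-transferase, was at 61.4, 53.2, 55.6 and 52.0 CPM in KO and 51.8, 42.8, 46.8 and 48.6 CPM in WT. All its KO values were above all its WT values, by a narrow margin, with a log2 fold change of 0.18 (SE 0.057, 95% interval 0.056 to 0.31, adjusted p = 0.365). Beside Txnrd1 it was the 1 of 33 targets whose libraries did not overlap, against 1.54% of all tested genes as higher in KO, and a single gene does not set the list apart from that background. Gstm5 belongs to a family of similar genes, and reads that aligned to several places were not counted.

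Of 14 partners and regulators of NRF2, such as Cul3, the small MAF genes and the repressor Bach1, 6 were higher and 8 lower in KO, with a median of -0.014. At an unadjusted p under 0.05 there was 1 of 14, lower in KO, beside 5.78% of all tested genes as lower and 4.71% as higher, which is near the background. It was Nfe2l1, which encodes the related factor NRF1. Nfe2l1 was at 153, 227, 254 and 243 CPM in KO and 172, 296, 270 and 263 CPM in WT, with a log2 fold change of -0.21 (SE 0.079, 95% interval -0.39 to -0.033, adjusted p = 0.417). The groups overlapped.

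A list of other antioxidant enzymes, such as superoxide dismutases, catalase and the other peroxiredoxins, had 23 tested genes. Of these, 13 were higher and 10 lower in KO, with a median of 0.031. The list also holds Txnip, whose product binds and inhibits thioredoxin and is not an enzyme. Txnip had the highest log2 fold change of the list, 0.57 (SE 0.28, 95% interval -0.079 to 1.23, adjusted p = 0.518). At an unadjusted p under 0.05 there was 1 of 23, higher in KO, beside 4.71% of all tested genes as higher and 5.78% as lower, which is no more than the background. It was Prdx2, a cytosolic peroxiredoxin that is reduced by thioredoxin. Prdx2 was at 176, 248, 272 and 325 CPM in KO and 140.4, 234, 283 and 249 CPM in WT, with a log2 fold change of 0.17 (SE 0.068, 95% interval 0.021 to 0.33, adjusted p = 0.43). No gene of the regulator and enzyme lists passed the adjusted threshold with edgeR, DESeq2 or limma-voom.

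**Figure D4:**
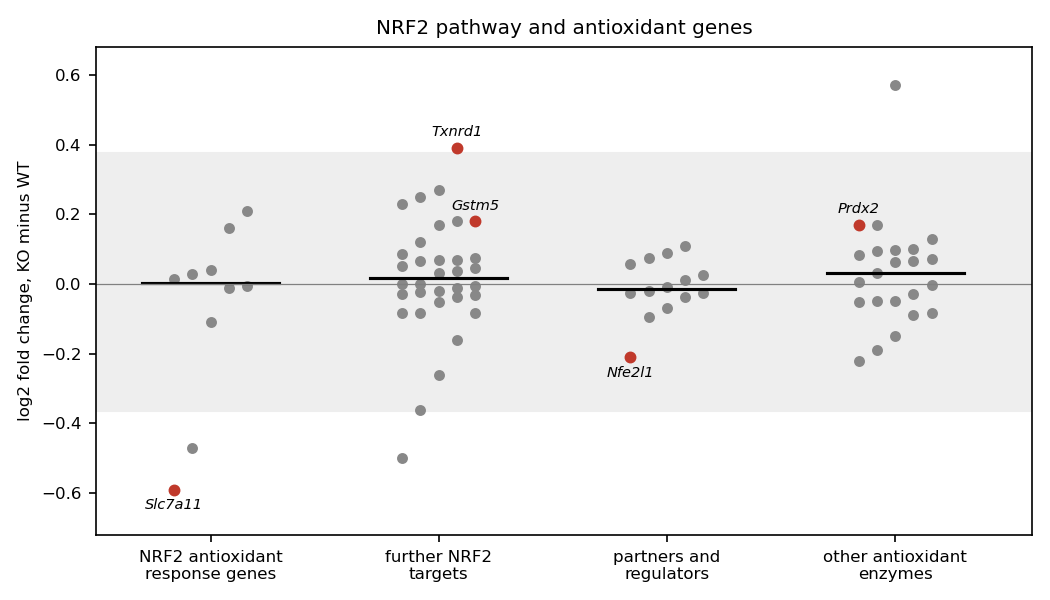
Log2 fold change, KO minus WT, of each tested gene of the 4 lists, with named red points for an unadjusted p under 0.05, black lines for list medians and a grey band from the 5th to the 95th percentile of all tested genes, -0.36 to 0.38. The medians run from -0.014 to 0.031. Txnrd1 lies just above the band and Txnip, at 0.57, further above it. Points of the 10 genes and of the further targets lie below it, the lowest at -0.59 and -0.5.

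Markers of glia, in which NRF2 targets are known to be high, were detected beside those of neurons. The sum of 13 astrocyte markers was 2050.2, 2379, 2579 and 1579.7 CPM in KO and 2139, 2250.3, 1660.1 and 1959 CPM in WT, and none of the 13 was at 0 in all libraries. The sum of 16 microglia and macrophage markers was 35.6, 72.7, 94.1 and 21.8 CPM in KO and 31.7, 31.6, 26.8 and 54.9 CPM in WT. The defining marker Tmem119 was at 0 in all 4 WT libraries and at most 0.0578 CPM in KO, and P2ry12 was at most 0.249 CPM in any library. Of the 13 microglia markers tested, 12 had a positive log2 fold change, with a median of 1.14 and 0 at an unadjusted p under 0.05. Nfe2l2 was highest, within each genotype, in the library with the highest microglia sum, KO3 and WT4, and lowest among KO libraries in KO4, where both the microglia and the astrocyte sums were lowest. The 4 KO libraries had the same order by Nfe2l2, by the microglia sum and by the astrocyte sum. The WT libraries did not, with Nfe2l2 at 7.76 CPM in WT3, which had the lowest microglia sum, and lowest at 6.46 CPM in WT2, which had the highest astrocyte sum. The part of glia in the Nfe2l2 values was not tested. Sums were 20.5 to 40.3 and 10.5 to 51.9 CPM for 13 vascular and fibroblast markers and 508 to 611 and 486 to 592 CPM for 7 oligodendrocyte lineage markers, in KO and WT.

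The genes whose log2 CPM followed Nfe2l2 most closely over the 8 libraries were 0610009E02Rik (Pearson r = 0.978), Anxa3 (0.976) and Anxa4 (0.958). For Hmox1 they were Foxo3 (r = 0.985), Cwc25 (0.98) and Lgals1 (0.977). These were picked from all tested genes for their likeness and share the libraries, so they are given as a description.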

How the data were processed

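Poly-A RNA of 4 Nuak1 KO and 4 WT neuron cultures was sequenced. The authors deposited unnormalised counts for each Ensembl gene. According to their methods and notes, the authors trimmed reads with cutadapt 1.10, aligned them to mm10 with STAR 2.5.3a and counted uniquely aligned reads with HTSeq 0.6.1p1 in union mode. This lowers the counts of genes with near-identical copies, among them Txn1 and the Gstm genes, and leaves reads over several genes uncounted. Strand use in the counting is not stated, and read layout is given differently in the labels and the methods.

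Symbols were matched to 23260 of 32726 identifiers. Counts were tested with edgeR 4.0.16 in R 4.3.3 (filterByExpr, TMM, robust quasi-likelihood F test, Benjamini-Hochberg adjustment over 16272 genes, threshold 0.05) with 1 surrogate variable from sva 3.50.0. The study's own tool, DESeq2 (1.42.0), and limma-voom (limma 3.58.1) were alternatives. SE is the absolute log2 fold change divided by the square root of F, and 95% intervals use the fit's degrees of freedom. The procedure was tested on simulated data. Exon lengths came from GENCODE on NCBIM37 and served for length only. Gene positions are GRCm38, from RefSeq. Likeness was computed on log2(CPM + 0.5).

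The members and gene lists were chosen with earlier results of these data known. Named genes were the 10 members, Nuak1, Txnrd1, up to 6 genes per wider list with the smallest unadjusted p under 0.05, and the 3 genes most correlated with Nfe2l2 and with Hmox1. Txnip was named besides, as it encodes no enzyme, and single cell type markers for their level. Gsta1, Gsta2 and Trim16l were not analysed here. The labels do not tie libraries to animals, of which the methods give 4 per genotype, and p-values measure the spread between these libraries.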

Additional observations from a re-analysis of the deposited data

How the results depend on the processing

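In 22 alternatives, 0 of the 10 genes passed the adjusted threshold. Slc7a11 stayed negative and Txnrd1 positive in all 22, and Gclc, from 0.00018 to 0.089, lay near 0 throughout. Nqo1 was dropped by the stricter filter and had no adjusted p with DESeq2. Genes at an unadjusted p under 0.05 are given for the 10 genes, the further targets (Txnrd1 included, except on lane A), the regulators and the other enzymes, against 1, 2, 1 and 1 and 10.5% of all genes. The share of all genes moved with the settings too, so the counts are to be read beside it. With no surrogate variable (2.52% of all genes) they were 0, 1, 0 and 0. With lane as a term (2.94%) the further targets gave 1 and the regulators 0. With the strain label (1.91%) the 10 genes gave 0 and the regulators 0. With no filter (6.91%) the 10 genes gave 0 and the further targets 5. With 2 surrogate variables (15.7%) the regulators gave 2 and the other enzymes 4. Median-ratio size factors (10.2%) and DESeq2 (9.53%) gave 4 further targets each, and limma-voom (10.5%) gave 2 other enzymes. Lane A (0.591%) gave 0, 0 and 0 for the first 3 lists, and lane B (11.2%) gave 2 of the 10, 4 further targets and 2 other enzymes. Without KO1 and WT1 (4.05%) the other enzymes gave 0, and without KO3 and WT4 (1.42%) the lists gave 0, 1, 0 and 0. Leaving out 1 library (5.15% to 15.8%) gave 0 to 1, 2 to 6, 0 to 1 and 0 to 2. The 10 genes gave 0 without KO1 (7.38%), WT1 (5.15%) or WT3 (15.8%), the further targets 6 without KO4 (9.85%), the regulators 0 without KO1, WT1 or WT2 (8.95%), and the other enzymes 0 without WT1 or WT2. The 1 of the 10 was Nfe2l2 without KO4 and Nqo1 without WT4, and the 2 on lane B were Nfe2l2 and Srxn1, in place of Slc7a11. The causes of these changes and of those below were not tested.

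The median over the 10 genes was -0.16 on lane A and -0.033 to 0.037 when 1 library was left out. Nuak1 was -4.81 on lane A (adjusted p = 0.849, 2 libraries a group) and -5.05 to -4.76 when 1 was left out. Txnrd1 was 0.39 with no filter, 0.38 with DESeq2 and 0.35 to 0.43 when 1 was left out. Directions turned with the strain label for Nfe2l2 (-0.31), Keap1 (0.25), Nqo1 (0.35), Hmox1 (-0.49), Gsr (0.16) and Txn1 (0.09). On lane A they turned for Nfe2l2 (-0.052), Hmox1 (-0.56), Gclm (-0.044) and Srxn1 (-0.24), and on lane B for Gsr (0.097). With 2 surrogate variables they turned for Keap1 (0.021) and Txn1 (0.0016). Hmox1 was -0.025 with no surrogate variable, -0.11 with lane as a term, -0.11 without KO1 and WT1 and -0.052 without KO3 and WT4, where Srxn1 was -0.053. Leaving out 1 library gave 0.097 to 0.36 for Nfe2l2, -0.031 to 0.029 for Keap1, -0.74 to -0.015 for Nqo1, -0.032 to 0.41 for Hmox1 and 0.014 to 0.065 for Gclc. It gave -0.017 to 0.1 for Gclm, -0.088 to 0.19 for Srxn1, -0.73 to -0.4 for Slc7a11, -0.18 to 0.022 for Gsr and -0.057 to 0.028 for Txn1.

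The labels do not say whether libraries with the same replicate number share a preparation. Their deviations from the group means correlated at 0.79, 0.01, 0.24 and -0.01 for replicates 1 to 4, and the main fit did not pair them. With the replicate number as a block, 3 genes in all passed in place of 8, Slc7a11 was at -0.61, Txnrd1 at 0.39 and 4 further targets, Txnrd1 included, had an unadjusted p under 0.05, beside 7.17% of all genes.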
